A study of Mus musculus with 10 samples.

Results

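Microglia are the resident macrophages of the brain, and their handling of cholesterol was followed here through 10 genes: Apoe, Lpl, Lipa, Npc2, Npc1, Soat1, Nceh1, Abca1, Abcg1 and Ch25h. They were picked by name for their roles as lipid carrier, lipases, lysosomal exporters, storage enzymes, efflux pumps and oxysterol enzyme. The choice was made with earlier results of these data known. Counts of calls among them are therefore description, and the shares over all genes beside them are not a test of the list. All 10 were found among the 24453 genes of the expression table. The table holds 10 RNA-seq libraries of microglia purified from mouse brain with magnetic beads (MACS), all labelled C57bl6 and untreated. In the first experiment, 3 libraries came from young mice of 10 weeks and 3 from aged mice of 15 months. In the other experiment, 2 libraries are labelled Rab7 deltaMG and 2 are labelled Rab7 Control, all from mice of 3 months. The series calls the deltaMG mice Rab7 null mutants, the gene for a GTPase that marks late endosomes. The promoter or Cre line behind the deletion is not given in the sources used here. The labels do not say that replicates are separate animals, so the p-values measure only the spread between these libraries.

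As background, microglia take up cholesterol in lipoproteins and in engulfed debris such as myelin. Lysosomal acid lipase (Lipa) frees it from its esters, Npc2 and Npc1 pass it out of the late endosome and lysosome, and Soat1 re-esterifies the surplus for storage in lipid droplets, from which Nceh1 can release it. Abca1 and Abcg1 then pump sterol onto lipoprotein particles built around Apoe, the main lipoprotein carrier made by glia. Liver X receptors (LXR), which sense oxysterols, induce Apoe, Abca1, Abcg1 and Lpl. Rab7 acts on the same late endosomes that Npc1 and Npc2 drain, and Apoe and Lpl are known to be higher in microglia of ageing and diseased brain.

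The values are RPM, read numbers scaled to a fixed library total, with 6098276 to 9907461 reads behind the scaling of each library and 1284410 to 1855047 reads in the listed genes. Rab7 itself did not separate the genotypes: its level was 64.2 and 67.5 RPM for control and 72.2 and 79.4 RPM for deltaMG (log2 difference 0.20, adjusted p = 0.668, limma). The files do not show which exons the reads came from, so Rab7 does not check the labels, and the genotype is given below as labelled. Xist, the RNA made from the inactive X chromosome of females, was 1715 to 1771 RPM in the young libraries and 0.127 to 0.940 RPM in the aged ones, while 4 Y-linked genes summed to 0 to 0.288 RPM and 35.7 to 48.7 RPM. Age and sex therefore cannot be told apart in the first experiment. The 4 libraries of the Rab7 experiment held both signals (Xist 924 to 1562 RPM and Y-linked genes 9.11 to 25.8 RPM). Microglial markers were high in all libraries: 15 genes including Cx3cr1, P2ry12 and Tmem119 summed to 7341 to 8099 RPM in young, 5255 to 5750 RPM in aged, 7423 and 6990 RPM in control and 6261 and 8089 RPM in deltaMG libraries, so that every aged library was below every other one. The part of this in the age comparison was not tested. Neutrophil markers, 13 genes including S100a8 and S100a9, summed to 593 to 1517 RPM in young, 1061 to 4542 RPM in aged, 731 and 490 RPM in control and 1950 and 1270 RPM in deltaMG libraries, with aged replicate 3 the highest. In such bulk libraries, fewer cells of a type and less RNA per cell cannot be told apart.

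For the genes whose levels moved most together in what follows, the sequence just upstream of the transcription start is shown, from 250 to 51 bases before the start that RefSeq gives on GRCm38.p6, on the strand of the gene. The windows are chr7:19699239-19699438 (minus strand) for Apoe, chr12:84773163-84773362 (minus) for Npc2, chr1:156474379-156474578 (minus) for Soat1 and chr3:27182754-27182953 (plus) for Nceh1. The window of Abca1, a gene that moved little, is chr4:53159946-53160145 (minus) and serves for comparison. Capitals mark a match to a searched motif.
Apoe: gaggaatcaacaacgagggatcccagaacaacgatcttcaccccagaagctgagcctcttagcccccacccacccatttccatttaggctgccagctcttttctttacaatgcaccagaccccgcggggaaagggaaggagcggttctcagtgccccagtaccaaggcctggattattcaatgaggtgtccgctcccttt
Npc2: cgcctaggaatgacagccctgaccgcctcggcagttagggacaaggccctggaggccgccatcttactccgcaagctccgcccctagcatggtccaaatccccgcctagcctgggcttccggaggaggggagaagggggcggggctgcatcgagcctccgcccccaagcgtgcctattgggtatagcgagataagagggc
Soat1: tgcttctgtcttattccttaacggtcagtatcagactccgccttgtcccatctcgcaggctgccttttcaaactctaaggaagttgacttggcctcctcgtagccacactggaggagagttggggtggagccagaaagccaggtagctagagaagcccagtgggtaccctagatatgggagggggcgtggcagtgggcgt
Nceh1: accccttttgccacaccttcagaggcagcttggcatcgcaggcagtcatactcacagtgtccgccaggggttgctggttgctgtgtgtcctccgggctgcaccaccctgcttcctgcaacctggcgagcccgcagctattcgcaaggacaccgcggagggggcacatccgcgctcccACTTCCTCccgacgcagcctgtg
Abca1: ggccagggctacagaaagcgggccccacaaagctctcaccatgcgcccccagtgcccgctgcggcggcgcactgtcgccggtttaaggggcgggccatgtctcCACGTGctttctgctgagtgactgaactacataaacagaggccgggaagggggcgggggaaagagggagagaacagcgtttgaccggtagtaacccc

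The RefSeq promoter table held 7 of the 10 genes. Their windows were searched on both strands for the E-box CACGTG, for the longer TCACGTGA that contains it and is bound by lysosomal regulators of the TFEB family, for AGGTCA, the half-site of LXR and other nuclear receptors, for CACCCCAC, the core of a sterol element, and for the PU.1 site GAGGAAGT. Nceh1 carried the PU.1 letters once, on the opposite strand, 73 bases before the start, and 1.75% of the 32851 promoter windows of the same length hold them. Abca1 carried the E-box once, 147 bases before the start, as do 4.34% of windows. Only exact letters were searched, so variant forms of these sites, those of LXR included, are not marked in any window. No match of the 5 motifs was in the windows of Apoe, Npc2, Soat1, Lipa or Ch25h, which says only that these letters are not in these 200 bases. TCACGTGA is in 0.441% of all windows, the core of the sterol element in 1.98% and the half-site in 11.4%.

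Levels were taken per kilobase of exon union, the bases covered by exons of any annotated transcript of a gene. On this scale Apoe was the highest of the 10 genes in every group. It stood at 17.5 RPM per kb in young, 40.6 in aged, 78.9 in control and 27.0 in deltaMG libraries. The union was 2138 bases for Apoe and 5438 bases for Npc2. The order of the genes depends on this length, and lengths of single mRNAs were not used. Abca1 and Npc2 came next, with Abca1 ahead in young libraries (12.5 against 9.71 RPM per kb) and Npc2 ahead in control libraries (25.4 against 17.1 RPM per kb). Npc1 stood at 7.36 RPM per kb in young libraries. Lpl was low on this scale, at 0.404 RPM per kb in control libraries, and Ch25h was the lowest. The other 9 genes reached 10 RPM in at least 2 libraries, which is the minimum for a gene to be tested. Nceh1 reached 10 RPM only in the control libraries (23.2 and 20.2 RPM) and in aged replicate 3 (14.5 RPM). Its calls in contrasts that include the control group thus rest on a minimum passed through the group where it is highest. Its test in aged against young also depended on the control libraries, since aged replicate 3 alone would not have met the minimum.

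**Figure D1:**
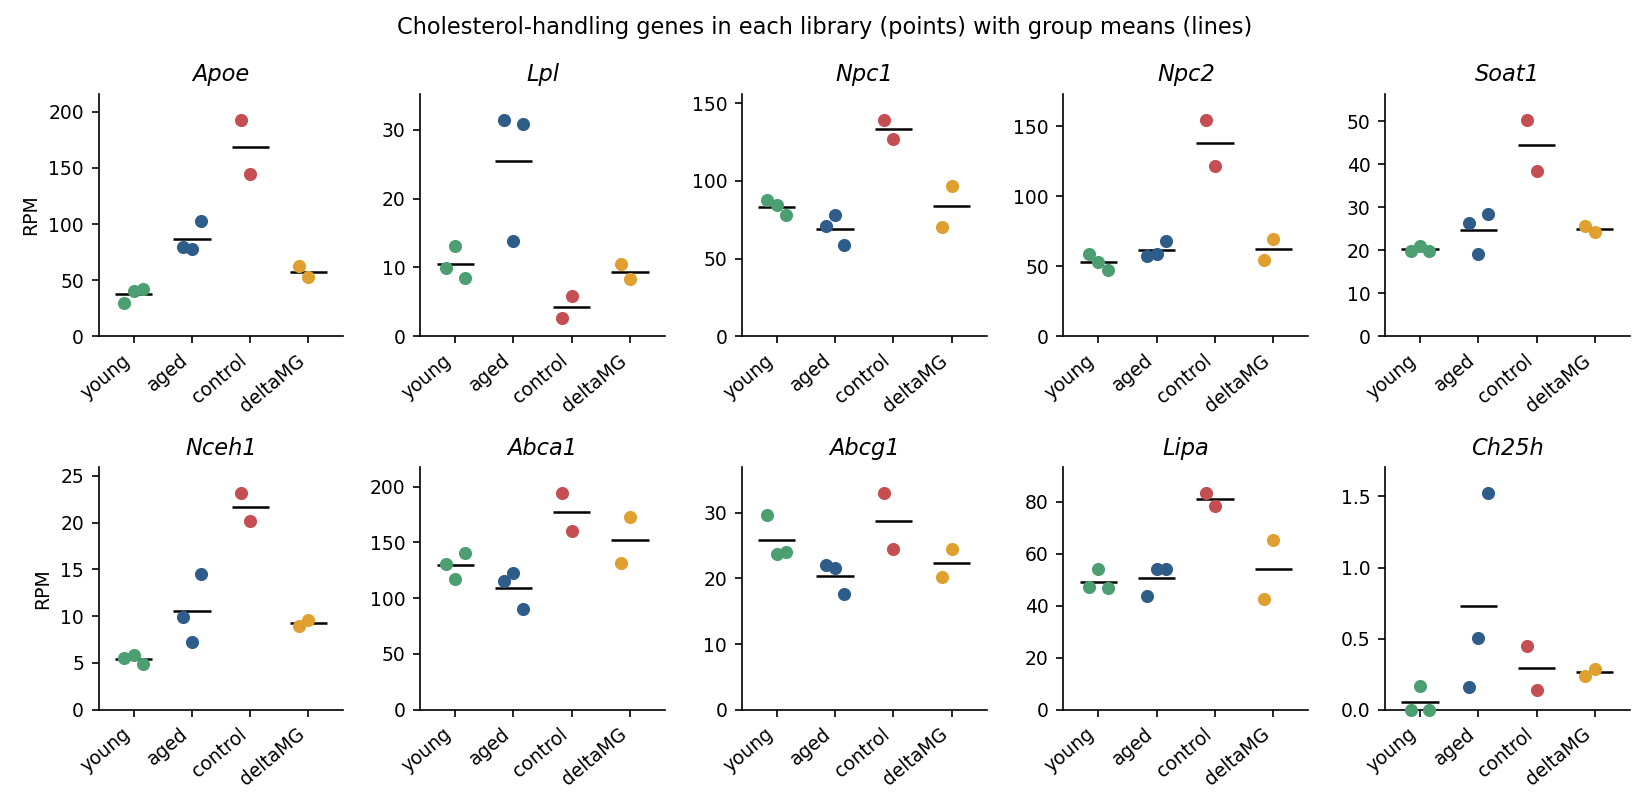
Level of each of the 10 genes in RPM (vertical axes, a separate scale for each gene) in the 10 libraries, by group; points are libraries and short lines are group means. Apoe runs from 29.9 to 42.0 RPM in young and from 144 to 193 RPM in control libraries, and Ch25h stays at or below 1.52 RPM.

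The first comparison set aged against young microglia. Apoe, Lpl and Nceh1 were higher in aged libraries, and the other 6 tested genes did not pass the test. A gene was called when its adjusted p from limma, over all 4151 tested genes, was under 0.05. All 3 calls were higher in aged, against 6.14% of all tested genes called and 3.16% called higher. The median log2 difference was 0.21 over the 9 genes and -0.05 over all genes tested. Every log2 difference here is of RPM + 1, which understates the change of low genes.

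Apoe, on chromosome 7 (GRCm38, 19696109 to 19699188, minus strand), was 29.9, 40.5 and 42.0 RPM in the young libraries and 79.9, 77.4 and 103 RPM in the aged ones. The groups did not overlap: the lowest aged library was above the highest young one, as in one direction or the other for 23.9% of all tested genes. The difference was 1.19 ± 0.17 (log2, SE), or 2.28-fold, with a 95% interval of 0.84 to 1.54 and an adjusted p of 0.000799. Without aged replicate 3, the library richest in neutrophil markers, it was 1.06 (adjusted p = 0.00126), and with a neutrophil score as covariate it was 1.02 (adjusted p = 0.000335). Markers of border macrophages, the macrophages of meninges and vessels, summed to 33.4 to 40.8 RPM over 9 genes in young and 39.3 to 120 RPM in aged libraries. The higher aged sums came mainly from F13a1 and Clec12a. F13a1 was 8.98, 8.86 and 5.33 RPM in young and 26.2, 13.5 and 62.5 RPM in aged libraries. Clec12a was 12.8, 7.37 and 35.9 RPM in aged libraries, against 9.46, 10.99 and 6.62 RPM in young ones. The groups overlapped for Mrc1 (11.98 to 14.97 RPM in young, 11.91 to 17.7 RPM in aged). They also overlapped for Cd163 (2.52 to 3.45 and 1.615 to 3.92 RPM). Monocyte markers, 8 genes, summed to 84.2 to 222 RPM and 198 to 835 RPM. The part of either in the Apoe difference was not tested.

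Lpl, the lipase that frees fatty acids from lipoprotein triglyceride (chromosome 8, 68880491 to 68907448, plus strand), was 9.93, 13.1 and 8.49 RPM in young and 31.5, 13.8 and 30.9 RPM in aged libraries. Aged replicate 2 lay close to the highest young library, and the other 2 aged libraries lay well above it. The difference was 1.13 ± 0.30 (adjusted p = 0.0425), or 2.19-fold. Nceh1, the hydrolase that releases cholesterol from stored esters (chromosome 3, 27182965 to 27284608, plus strand), was 5.52, 5.90 and 4.89 RPM in young and 9.87, 7.27 and 14.5 RPM in aged libraries. All 3 aged libraries were above the 3 young ones, and aged replicate 2 was again the lowest of its group. The difference was 0.80 ± 0.22 (adjusted p = 0.0496), or 1.74-fold. Both calls sat near the threshold. With the neutrophil score as covariate Lpl was 0.77 (adjusted p = 0.147) and Nceh1 0.46 (adjusted p = 0.338). With no minimum, over 18011 genes, both calls were lost (adjusted p = 0.139 for Lpl and 0.122 for Nceh1). Leaving out single libraries ended the Lpl call in 7 of 10 fits (adjusted p 0.0544 to 0.156; it held without aged replicate 2 or either control library) and the Nceh1 call in 9 of 10 (0.0654 to 0.176; it held without aged replicate 2).

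The lysosomal genes gave small differences with age, none of them past the threshold. Npc2 was 47.1 to 58.8 RPM in young and 57.3 to 68.2 RPM in aged libraries, Npc1 77.9 to 87.7 and 58.7 to 77.8 RPM, and Lipa 46.6 to 53.9 and 43.7 to 54.2 RPM. The groups overlapped for Npc2 and Lipa, and for Npc1 they touched without overlap. The log2 difference of Npc2 was 0.21 (interval -0.09 to 0.52, adjusted p = 0.435), Npc1 -0.27 (-0.57 to 0.03, adjusted p = 0.298) and Lipa 0.04 (-0.30 to 0.37, adjusted p = 0.927). Soat1, the enzyme that esterifies cholesterol for storage, was 19.7 to 21.0 RPM in young and 19.2 to 28.3 RPM in aged libraries, a difference of 0.26 (-0.09 to 0.60, adjusted p = 0.404). Abca1 was 118 to 141 RPM in young and 90.2 to 122 RPM in aged libraries, and Abcg1 23.8 to 29.6 and 17.7 to 22.1 RPM, with lower values in aged libraries for both pumps. Their differences were -0.25 (-0.57 to 0.06, adjusted p = 0.353) and -0.32 (-0.67 to 0.03, adjusted p = 0.273). The intervals bound these differences without showing that the levels are equal.

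The other comparison set the libraries labelled deltaMG against those labelled control. Apoe, Npc2, Nceh1, Soat1 and Npc1, that is the carrier, both lysosomal cholesterol exporters and both storage enzymes, were lower in deltaMG. Lipa and the pumps did not pass the test, and Lpl had higher values in deltaMG but did not pass either. The 5 calls were all lower, against 3.78% of all tested genes called and 2.58% called lower. The median log2 difference was -0.68 over the 9 genes and -0.02 over all genes tested.

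Apoe was 193 and 144 RPM in the control libraries and 62.7 and 52.7 RPM in the deltaMG libraries. Both deltaMG libraries were below both control libraries by a wide gap. The difference was -1.52 ± 0.20 (log2, SE; interval -1.96 to -1.09; adjusted p = 0.00077), or 2.87-fold lower. It was -1.31 (adjusted p = 0.0372) without control replicate 1, which has the higher Apoe of the pair, and -1.79 (adjusted p = 4.5e-06) with the neutrophil score as covariate. Astrocytes also make much Apoe in the brain. The 10 astrocyte markers summed to 56.0 and 49.4 RPM in control and 34.3 and 41.4 RPM in deltaMG libraries, mostly from Slc1a3, and the other 9 summed to 4.61 and 3.38 RPM in control and 2.99 and 4.05 RPM in deltaMG libraries. Gfap was at 0 in 8 of the 10 libraries of the study, whereas Slc1a3, Aqp4, Slc1a2 and Aldoc were above 0 in every library. The part of astrocyte RNA in the Apoe difference was not tested.

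The exporters come next in the route. Npc2, the soluble protein that lifts cholesterol from the lysosome lumen (chromosome 12, 84754562 to 84773152, minus strand), was 155 and 121 RPM in control and 54.5 and 69.4 RPM in deltaMG libraries. Its groups did not overlap, and the difference was -1.14 ± 0.18 (adjusted p = 0.00181), or 2.21-fold lower. Npc1, the membrane protein that receives cholesterol from Npc2 (chromosome 18, 12189692 to 12236400, minus strand), was 139 and 127 RPM in control and 70.6 and 96.6 RPM in deltaMG libraries. The deltaMG pair was again below the control pair but its own spread was wider, and the difference was -0.68 ± 0.17 (adjusted p = 0.0439). Reads of Npc1 may include some of Rmc1 and Gm15956, which overlap its exons on the opposite strand and could not be told apart from it without strand. Lipa, the lysosomal lipase (chromosome 19, 34492318 to 34527474, minus strand), was 83.4 and 78.5 RPM in control and 42.6 and 65.2 RPM in deltaMG libraries, a difference of -0.61 (interval -1.01 to -0.20, adjusted p = 0.0946). Lipa thus missed the threshold although its groups did not overlap, as was the case for 51.8% of all tested genes in this comparison of 2 libraries with 2.

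Both storage enzymes were lower in deltaMG. Soat1 (chromosome 1, 156424525 to 156474331, minus strand) was 50.4 and 38.5 RPM in control and 25.7 and 24.2 RPM in deltaMG libraries, a difference of -0.80 ± 0.20 (adjusted p = 0.0408). Nceh1 was 23.2 and 20.2 RPM in control and 8.96 and 9.55 RPM in deltaMG libraries, a difference of -1.14 ± 0.27 (adjusted p = 0.0344), or 2.21-fold lower. Nceh1 entered the test through the control pair, since only aged replicate 3 also reached 10 RPM. With no minimum, over 18011 genes, its call was lost (adjusted p = 0.110), as were those of Soat1 and Npc1. The deltaMG libraries lay close together for both genes, and the spread came mainly from the control pair. Lpl went the other way in value, at 2.67 and 5.78 RPM in control and 10.5 and 8.25 RPM in deltaMG libraries, with a difference of 1.05 (interval 0.25 to 1.84) that did not pass (adjusted p = 0.135).

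The efflux pumps showed the smallest differences among the 9 tested genes. Abca1, which loads cholesterol and phospholipid onto lipid-poor Apoe (chromosome 4, 53030787 to 53159895, minus strand), was 194 and 160 RPM in control and 131 and 172 RPM in deltaMG libraries. The groups overlapped, and the difference was -0.22 (interval -0.61 to 0.16, adjusted p = 0.564). Abcg1, which adds sterol to particles that already carry lipid (chromosome 17, 31057675 to 31117988, plus strand), was 33.0 and 24.4 RPM in control and 20.2 and 24.4 RPM in deltaMG libraries, a difference of -0.34 (-0.77 to 0.09, adjusted p = 0.397). Without control replicate 1, which had the higher value of its pair for each of the 5 called genes, the Apoe call held and those of Npc2 (adjusted p = 0.0672), Npc1 (0.350), Soat1 (0.381) and Nceh1 (0.318) were lost. Leaving out any single library in turn, the calls of Npc1, Soat1 and Nceh1 were lost in 6, 7 and 5 of 10 fits, and that of Npc2 in the fit without control replicate 1 alone.

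**Figure D2:**
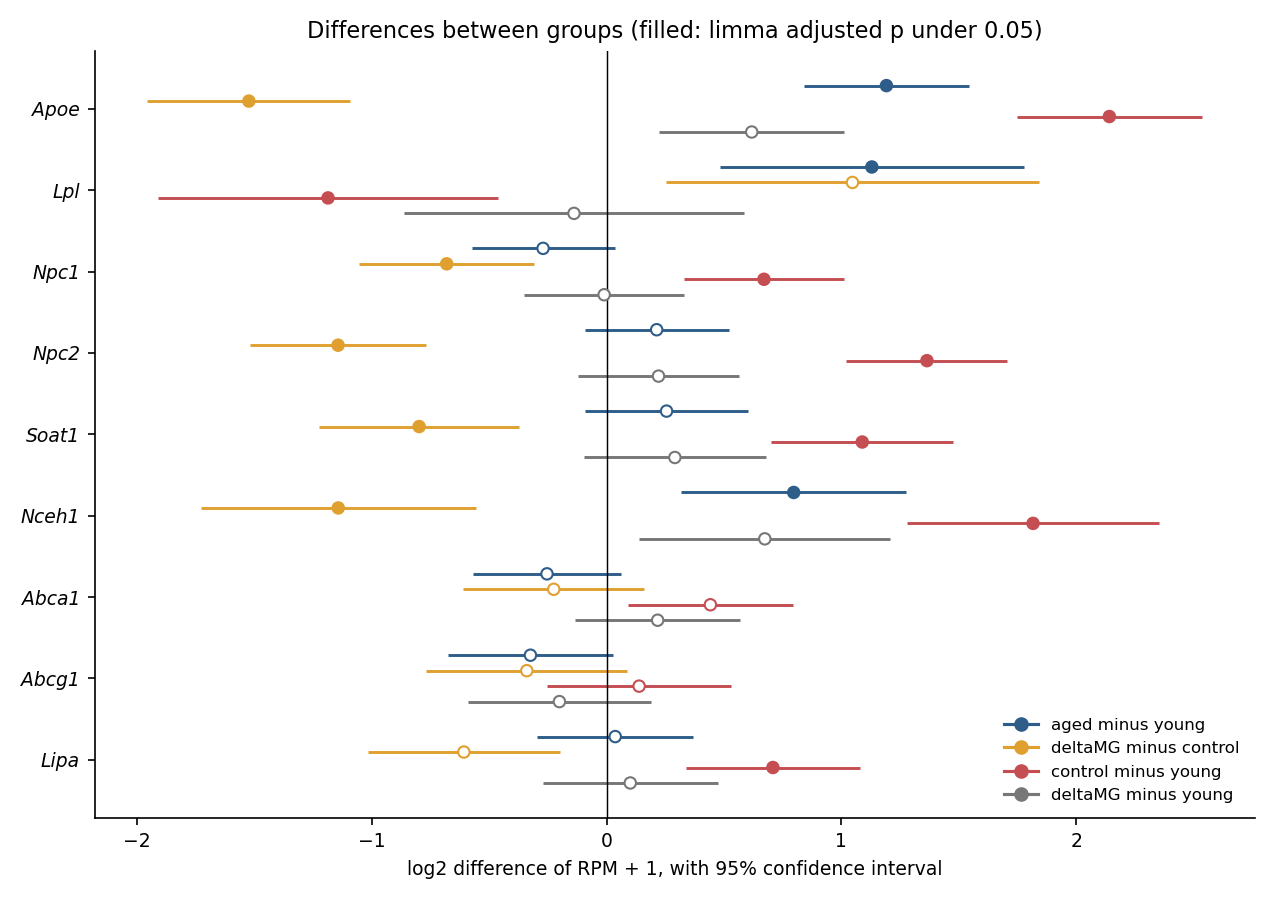
Log2 difference of RPM + 1 with its 95% interval (horizontal axis) for each of the 9 tested genes, in aged minus young, deltaMG minus control, control minus young and deltaMG minus young. Filled points are calls at an adjusted p under 0.05; Apoe is at 1.19, -1.52, 2.14 and 0.62, the last of these not called.

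The difference between the contrasts, deltaMG minus control less aged minus young, was tested in the same fit and is called the difference of effects. The name states no cause, since age and sex cannot be told apart and the genotype is as labelled. Apoe (-2.71, adjusted p = 2.3e-05), Nceh1 (-1.94, adjusted p = 0.00499), Npc2 (-1.36, adjusted p = 0.00279) and Soat1 (-1.05, adjusted p = 0.0287) passed, so 4 of the 9 genes differed between the contrasts, against 4.79% of all tested genes called and 2.67% called lower. For Lpl the difference of effects was -0.08, with a wide interval of -1.11 to 0.94 (adjusted p = 0.954), and its log2 values were 1.13 with age and 1.05 with the deltaMG label. Apoe and Lpl were both higher in the aged libraries, whereas in the Rab7 comparison Apoe was lower and Lpl gave a positive value that did not pass. Without control replicate 1 the Nceh1 call was lost (adjusted p = 0.0640), and the Soat1 call was lost in 6 of the 10 fits that leave out a library.

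The levels in all 4 groups put both comparisons side by side. Apoe levels were ordered young (37.5 ± 6.58 RPM, SD, n = 3), deltaMG (57.7 ± 7.12 RPM, n = 2), aged (86.7 ± 14.0 RPM, n = 3) and control (169 ± 34.5 RPM, n = 2), and no library of a group overlapped the next. The libraries labelled control were above all 8 other libraries for 6 of the 9 genes (Apoe, Npc1, Npc2, Soat1, Nceh1 and Lipa), as they were for 14.5% of all tested genes. They were below all 8 for Lpl, as for 4.17% of tested genes. Npc2 shows the pattern plainly, at 52.8 ± 5.86 RPM in young, 61.4 ± 5.95 in aged, 62.0 ± 10.6 in deltaMG and 138 ± 23.5 in control. Soat1 stood at 20.2 ± 0.703 RPM in young, 24.6 ± 4.81 in aged, 24.9 ± 1.08 in deltaMG and 44.4 ± 8.40 in control libraries. For both genes the young, aged and deltaMG groups lay within a narrow range, and the control group alone was apart.

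Set against the young libraries of the other experiment, the control libraries had 7 of the 9 genes past the threshold, with 8.79% of all tested genes called, 6.87% higher and 1.93% lower. Apoe was 2.14 (4.41-fold, adjusted p = 7.5e-06), Nceh1 1.82 (adjusted p = 0.000368), Npc2 1.36 (adjusted p = 0.000101), Soat1 1.09 (adjusted p = 0.00173), Lipa 0.71 (adjusted p = 0.0214) and Npc1 0.67 (adjusted p = 0.0173), all higher in control. Lpl was lower, at -1.19 (adjusted p = 0.0425). Abca1 was 0.44 (interval 0.09 to 0.79, adjusted p = 0.116) and Abcg1 0.14 (adjusted p = 0.707). Without control replicate 1 the calls were those of Apoe, Npc2 and Nceh1, 3 in all. These 2 groups differ in experiment, age and the mix of sexes, which cannot be told apart, and the contrast shares its control libraries with deltaMG minus control and its young libraries with aged minus young. The median of all tested genes was 0.11 in this contrast and -0.01 after median-of-ratios scaling, so each value contains a general shift of that size.

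The deltaMG libraries were nearer to the young ones. No gene of the 9 passed in deltaMG minus young, where 0.12% of all tested genes were called, and 2 of the 9 had an unadjusted p under 0.05, as did 8.24% of all tested genes: Apoe at 0.62 (adjusted p = 0.365) and Nceh1 at 0.67 (adjusted p = 0.493). This contrast was added after the values were seen, and it too crosses experiments. A p above the threshold does not show equal levels: the Apoe libraries of deltaMG (52.7 and 62.7 RPM) were both above the highest young library (42.0 RPM).

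Ch25h, which makes an oxysterol that activates LXR and whose product is a precursor of the ligand of Gpr183 (chromosome 19, 34473778 to 34475164, minus strand), was too low to test. It was 0, 0.164 and 0 RPM in young, 0.157, 0.505 and 1.52 RPM in aged, 0.446 and 0.141 RPM in control and 0.239 and 0.289 RPM in deltaMG libraries. A level of 3 reads corresponds to 0.303 to 0.492 RPM, so most libraries held only a few reads and no difference was detectable at this depth. Gpr183, a receptor that steers immune cells along oxysterol gradients, was well expressed. Gpr183 was lower in aged than in young libraries, at 64.8 against 92.1 RPM on average (-0.50, adjusted p = 0.0425). It was higher in deltaMG (83.1 RPM) than in control (52.8 RPM) libraries (0.64, adjusted p = 0.0441). Its direction was thus opposite to that of Apoe in both comparisons.

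The wider pathway was taken from 11 gene lists with 119 genes besides the 10, of which 42 reached the minimum. With age 1 of the 42 was higher and 2 were lower, with a median of -0.15, against 6.14% of all tested genes called. With the deltaMG label 1 was higher and 5 were lower, with a median of -0.10, against 3.78% called. In control minus young 5 were higher and 1 was lower, against 8.79% called.

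Among lipoprotein and scavenger receptors, 6 of 12 were tested. Sorl1, a sorting receptor that also binds Apoe, was higher in aged (9.01 RPM in young; 1.04, 2.06-fold, adjusted p = 0.0327). Trem2, the microglial receptor for lipids and Apoe, was lower in deltaMG (22.6 against 36.9 RPM; -0.68, adjusted p = 0.042), as was Lrp1, an endocytic receptor for Apoe (163 against 250 RPM; -0.62, adjusted p = 0.0489). Apoc1 and Apoc4, the small apolipoprotein genes that neighbour Apoe, were listed at 0 in all 10 libraries.

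Lysosome genes beyond the exporters were also counted. Of 9 tested genes of lysosomal lipid breakdown besides Lipa, none passed with age and 2 were lower in deltaMG, against 2.58% of all tested genes called lower: Hexa, a subunit of the enzyme that degrades the ganglioside GM2 (42.4 against 84.9 RPM; -0.98, adjusted p = 0.0036), and Gm2a, its activator protein (34.6 against 57.0 RPM; -0.70, adjusted p = 0.0193). In control minus young 4 of these 9 were higher, against 6.87% of all tested genes. The list without Lipa summed to 1008 to 1116 RPM in young, 901 to 984 in aged, 1582 and 1353 in control and 949 and 1138 in deltaMG libraries. Of the 12 tested genes of late endosome cholesterol transfer besides Npc1 and Npc2, none passed with age. Lamp1, a main glycoprotein of the lysosome membrane, was lower in deltaMG (252 against 456 RPM; -0.86, adjusted p = 0.00355). The control libraries were thus the highest for the summed lysosome genes too.

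Synthesis genes were low: none of the 20 cholesterol synthesis genes reached the minimum, so none was tested. Together they summed to 37.2 to 39.7 RPM in young, 47.9 to 55.1 RPM in aged, 49.6 and 45.9 RPM in control and 36.3 and 49.2 RPM in deltaMG libraries. Every aged and control library was above every young one in this untested sum. Of the sterol sensing genes 3 of 11 were tested, and Mylip, a ubiquitin ligase induced by LXR, was lower in aged libraries (32.3 against 45.8 RPM; -0.50, adjusted p = 0.0411). Mylip thus moved opposite to Apoe with age, but the other tested LXR targets went both ways. Lpl and Plin2 had higher means in aged than in young libraries, and Abca1, Abcg1, Lpcat3 and Scd2 had lower ones. In deltaMG minus control Mylip had the sign of Apoe but did not pass (-0.19, adjusted p = 0.583, limma). The part of LXR in the Apoe differences was not tested. The LXR genes themselves were low, with Nr1h3 at or below 0.313 RPM and Nr1h2 between 1.58 and 5.50 RPM. Of the lipid droplet genes besides Soat1 and Nceh1, 5 were tested and none passed in either comparison. The 12 of the list besides Soat1 and Nceh1 summed to 50.7 and 40.8 RPM in control and 78.7 and 67.2 RPM in deltaMG libraries, the reverse of the order of Soat1 and Nceh1, and the median log2 difference over the 7 tested genes of the list was 0.65. Soat2, the other esterifying enzyme, stayed at or below 0.564 RPM.

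**Figure D3:**
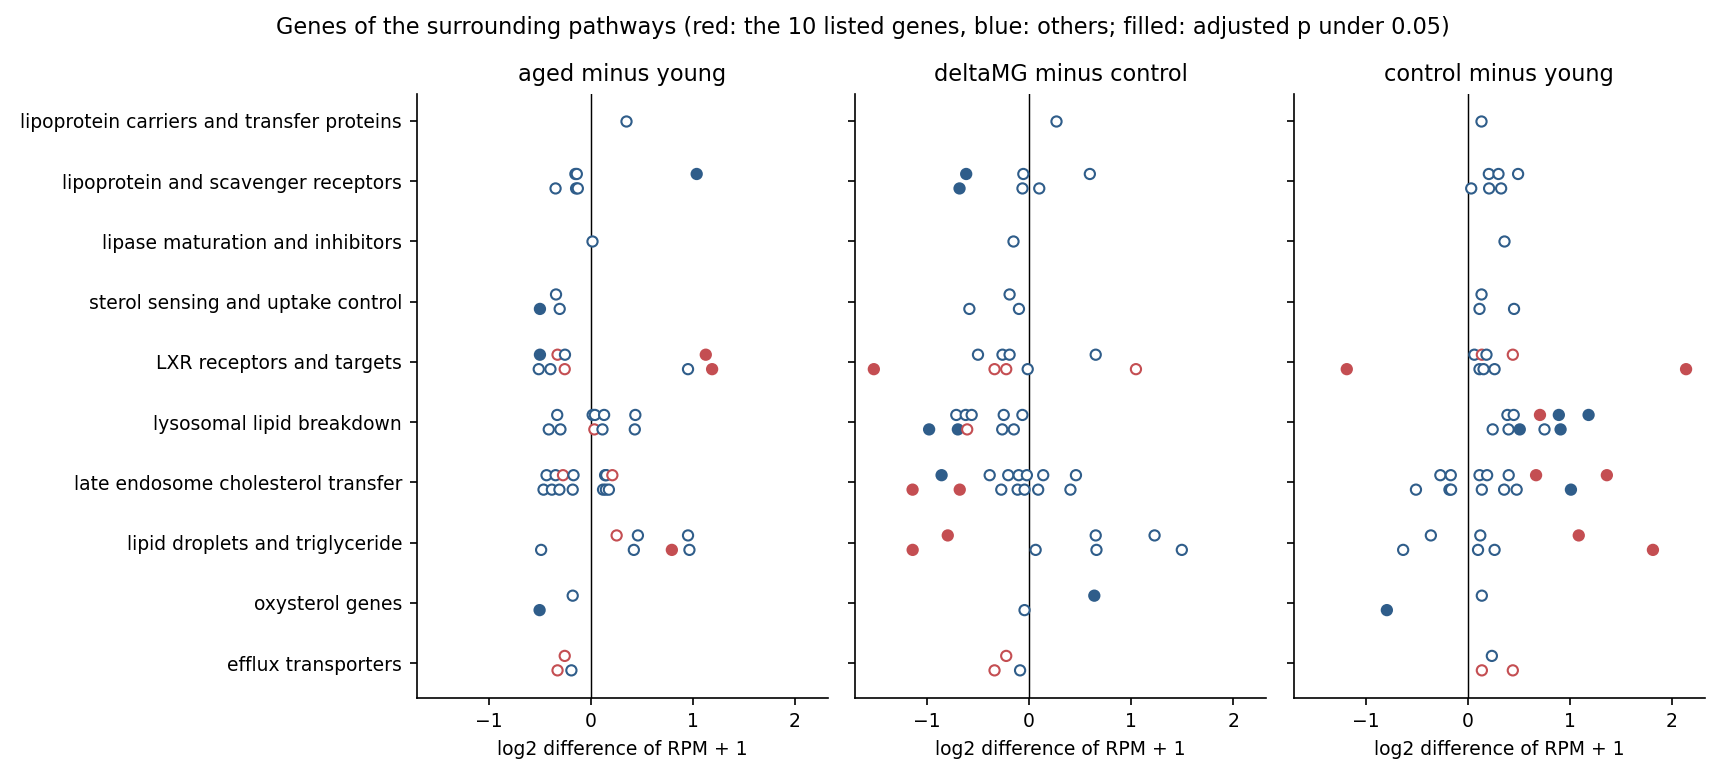
Log2 difference of RPM + 1 (horizontal axes) for the tested genes of the pathway lists (rows) in aged minus young, deltaMG minus control and control minus young; each point is a gene, red for the 10 cholesterol genes and blue for others, and filled points are calls at an adjusted p under 0.05. Hexa at -0.98 and Lamp1 at -0.86 are among the lower calls in deltaMG, and the cholesterol synthesis list, with no tested gene, has no row.

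Across the 10 libraries, the genes nearest to Apoe among 682 with a mean of at least 50 RPM were Eef1a1 (Pearson r of log2 values 0.93, Spearman 0.92), Fth1 (0.93 and 0.93), B2m (0.93 and 0.92), Plek (0.92 and 0.92) and Gnas (0.91 and 0.98). The farthest were Cx3cr1 (-0.95 and -0.92), Fat3 (-0.94 and -0.99), Lpar6 (-0.93 and -0.94), Gpr183 (-0.93 and -0.95) and Zbed6 (-0.92 and -0.85). Cx3cr1, the fractalkine receptor of homeostatic microglia, was 1068 to 1174 RPM in young, 689 to 741 RPM in aged, 398 and 437 RPM in control and 965 and 1285 RPM in deltaMG libraries. Within the 10 genes, Nceh1 (0.94 and 0.92) and Soat1 (0.89 and 0.81) lay nearest to Apoe, followed by Npc2 (0.83 and 0.64) and Lipa (0.68 and 0.54). Npc1 (0.45 and 0.09), Abca1 (0.28 and 0.16), Abcg1 (0.04 and -0.08) and Lpl (-0.26 and -0.14) lay far from it. These coefficients describe 10 libraries in 4 groups that share a scaling per library, and are given with no test.

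Markers of other cells differed between the groups as well. In the Rab7 comparison monocyte markers summed to 104 and 64.9 RPM in control and 251 and 186 RPM in deltaMG libraries. Border macrophage markers summed to 43.7 and 50.6 RPM in control and 60.3 and 59.0 RPM in deltaMG libraries. Both sums were higher in deltaMG. The border macrophage difference came mainly from F13a1 and Clec12a. F13a1 was 13.2 and 12.8 RPM in control and 18.8 and 16.2 RPM in deltaMG libraries. Clec12a was 4.90 and 3.10 against 11.9 and 9.11 RPM. Mrc1 (16.6 and 20.6 against 16.2 and 20.1 RPM) was not higher in deltaMG. Neither was Cd163 (4.61 and 7.05 against 4.18 and 5.35 RPM), and the remaining markers were at most 2.82 RPM. The 6 markers of ependymal cells and choroid plexus summed to 30.1 to 114 RPM in young, 62.6 to 125 RPM in aged, 5.94 and 6.91 RPM in control and 26.3 and 63.2 RPM in deltaMG libraries. The 9 neuron markers summed to 2.16 to 5.08, 7.75 to 16.0, 0.892 to 1.83 and 5.38 to 9.26 RPM in the same order. Most of the choroid plexus difference was Ttr, at 2.23 and 2.26 RPM in control and 20.9 and 57.4 RPM in deltaMG libraries. Kcnj13 was 3.57 and 4.65 against 5.26 and 5.64 RPM, and the rest of that list was at most 1.41 RPM. Most of the neuron difference between control and deltaMG was Meg3, at 0.297 and 0.846 against 4.78 and 8.39 RPM. Snap25 was 0.297 and 0.564 against 0.597 and 0.434 RPM. The control libraries, highest for Apoe, had the lowest choroid plexus and neuron sums. Their astrocyte sums were above those of the other 8 libraries (at most 48.5 RPM), through Slc1a3 at 51.4 and 46.0 RPM. The other 9 astrocyte markers summed to 4.61 and 3.38 RPM in control and 4.255 to 6.23 RPM in young libraries. They summed to 5.59 to 12.1 RPM in aged and 2.99 and 4.05 RPM in deltaMG libraries. The neutrophil and monocyte markers of the control libraries overlapped those of the young libraries. Of the 5 calls in deltaMG minus control, that of Npc1 was lost with the neutrophil score as covariate (-0.48, adjusted p = 0.215) and the other 4 held, with Soat1 at -1.12 and Nceh1 at -1.66. The part of the other cell types in the differences was not tested.

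**Figure D4:**
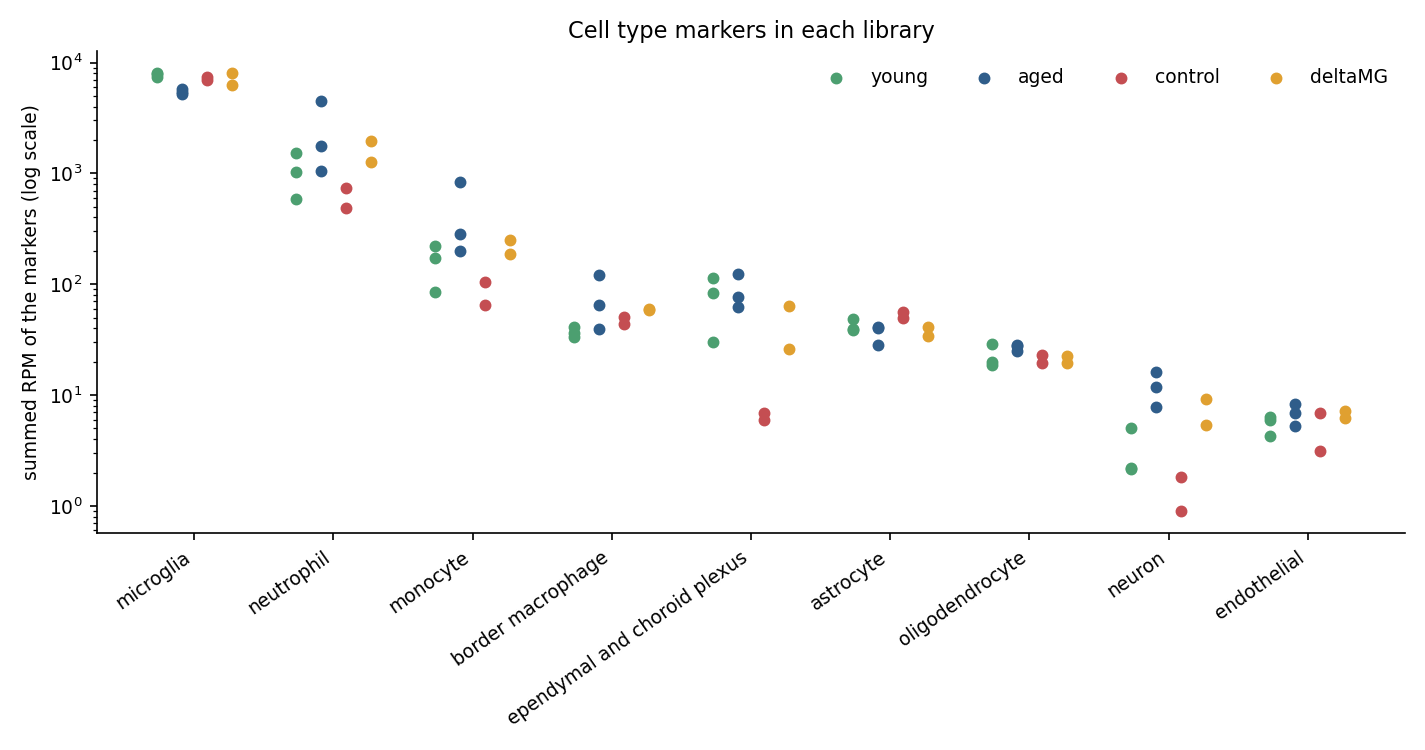
Summed RPM (vertical axis, log scale) of 9 of the 12 marker lists in each of the 10 libraries; points are libraries, coloured by group. Neutrophil markers reach 4542 RPM in aged replicate 3 and are at 731 and 490 RPM in the control libraries, while microglial markers are at 5255 to 5750 RPM in aged and at 6261 to 8099 RPM in the other libraries.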

How the data were processed

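The deposited table gives 1 normalised value per gene and library; neither the aligner, the counter, the annotation, the strand setting nor the normalisation is given in the sources used here. Per the labels' protocols, NuGEN Ovation V2 amplified the RNA before Ion Xpress Plus Fragment library construction. FastQC and the builds GRCm38 and mm10 are named in the submitters' processing notes. The unit of the values the authors deposited was taken to be RPM, because 94.2 to 94.6% of low values (up to 500 reads) lay within 0.05 of a whole multiple of 1 step, after a constant of 0.0001 was subtracted from every cell. The remaining low values were not whole multiples, so whole reads were not recovered for every gene and no count model was used. Counts of reads quoted come from that step, and the listed genes hold 18.7 to 23.5% of each library's RPM.

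A total of 4151 genes reached 10 RPM in 2 or more libraries and were tested on log2(RPM + 1) with limma 3.58.1 in R 4.3.3 (moderated with a mean trend), the 4 groups sharing 1 estimate of spread (6 residual degrees of freedom), with Benjamini-Hochberg adjustment over all tested genes. The fit was tested on simulated data. Gene positions and exon lengths are from GENCODE M21 on GRCm38, and promoter windows from RefSeq. Named genes were all 10 by name, per pathway list up to 4 of the other genes called in a comparison, and the 5 genes most and least like Apoe. The neutrophil score used 12 of the 13 marker genes. The 10 genes and the lists were chosen with earlier results of these data known. A single gene of the receptor list is not reported by name here. Alternatives changed the pseudocount, filter, scaling, spread model, threshold and libraries included.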

Additional observations from a re-analysis of the deposited data

How the results depend on the processing

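Apoe kept its direction and its call in all 24 alternative fits of aged minus young and all 24 of deltaMG minus control. Aged minus young ranged from 1.04 to 1.28 when single libraries were left out and from 1.02 to 1.25 under the other settings, and deltaMG minus control from -1.73 to -1.31 and from -1.79 to -1.39. The number of the 9 tested genes called in aged minus young went from 3 to 1 with no minimum, with at least 50 RPM in at least 3 libraries, with own groups only, with an adjusted p under 0.01 and with the neutrophil score, and was 1 to 3 when single libraries were left out. In deltaMG minus control it went from 5 to 2 with no minimum and with an adjusted p under 0.01, to 3 with the 50 RPM filter and to 3 without the mean trend, and was 1 to 6 when single libraries were left out. In the difference of effects it went from 4 to 2 with the 50 RPM filter, and was 2 to 4 when single libraries were left out. In control minus young it went from 7 to 4 with no minimum, with the 50 RPM filter and with an adjusted p under 0.01, and was 3 to 7 when single libraries were left out. In deltaMG minus young it was 0 in all 23 fits. The 50 RPM filter tests only 5 of the 10 genes. Own groups only tests 8 of them in aged minus young, since Nceh1 then misses the minimum and is not tested. The cause of the other changes was not tested.

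Replicate numbers gave no sign of pairing in the young and aged libraries, where same-numbered libraries had deviations correlated at -0.14, -0.24 and -0.39. For control and deltaMG the value was 0.12. With 2 libraries in each group both pairs give the same value by construction, so it cannot show whether these libraries were paired. With the replicate block the count was 1 in aged minus young, 2 in deltaMG minus control and 3 in the difference of effects; contrasts between experiments share no block. The fit on own groups only was not run for the difference of effects.

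Of 780 fits of single genes, 666 kept direction and side of the threshold, 96 lost a call, 6 gained one and 12 changed sign, none of these a called value. These were Lipa with age (-0.056 with array weights; -0.014 to 0.14 leaving out libraries), Abca1 in deltaMG minus control (0.082 with the neutrophil score), Lpl in the difference of effects (0.027 with a pseudocount of 0.1; -0.52 to 0.36 leaving out libraries) and Abcg1 in control minus young (-0.0028 with quantile normalization; -0.071 to 0.35 leaving out libraries). Lipa passed in deltaMG minus control with own groups only (adjusted p = 0.00908), with array weights (0.0403) and without deltaMG replicate 2 (0.0306), and Lpl without aged replicate 2 (0.048). All genes called numbered 255 with age (92 to 419 leaving out libraries, 66 to 361 otherwise), 157 with the deltaMG label (22 to 307, 62 to 476), 199 for the difference (61 to 261, 86 to 464) and 365 in control minus young (52 to 499, 147 to 657). The split of higher to lower calls moved with scaling, from 131 and 124 to 230 and 104 with age under median-of-ratios, from 285 and 80 to 232 and 155 in control minus young, and from 50 and 107 to 90 and 132 in deltaMG minus control.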
